A study of Mus musculus with 14 samples.

Results

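Interferon-stimulated genes were followed as a group of 37 genes chosen by symbol, out of 55487 genes in the count table. All 37 symbols were found once. The group held the Ifit family, the ISG15 system, the Oas and Mx families, the viperin locus, the transcription factors that carry the interferon signal, cytosolic RNA sensors, interferon-induced GTPases and single proteins such as *Bst2* and *Ifi27*. Interferons are secreted proteins that bind paired receptors on the cell surface. Type I interferons signal through JAK kinases to a complex that holds STAT2 and IRF9, which binds the interferon-stimulated response element (ISRE) in front of these genes, and type II interferon acts through the GAS element. The products block viral RNA and protein, sense foreign nucleic acid and raise the sensitivity of the cell to further interferon.

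RNA had been sequenced from caudal intervertebral discs of 14 male mice, with 5 discs pooled for each mouse. The db/db mice (n = 3) were homozygous for the Lepr db mutation, which takes away leptin receptor signaling, and the db/+ mice (n = 3) were heterozygous littermates, so that both groups carried the mutant allele. Both were 12 weeks old. STZ-HFD mice (n = 4) were C57BL/6J on a high-fat diet, given 1 dose of 100 mg/kg streptozotocin (STZ), a toxin of insulin-producing cells, after a lead-in of 4 to 6 weeks, and kept on that diet for 12 weeks more. Con+Veh mice (n = 4), also C57BL/6J, received chow and citrate vehicle. The STZ-HFD and Con+Veh mice were 12 weeks old at the start of the study, which made them older at harvest than the db/db and db/+ mice. The question put to these genes was whether either diabetic model changed interferon-stimulated transcription in the disc.

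Libraries held 16076908 to 58943169 counts, of which ribosomal RNA took 28.1 to 60.2%. *Lepr* had 309, 534 and 375 counts in db/db and 472, 374 and 391 in db/+, so its total did not separate the genotypes, and the count covers the whole gene rather than the mutation. The cartilage genes *Acan* and *Col2a1* had at least 10239 and 2685 counts in every library, and 8 of 10 nucleus pulposus markers passed the minimum level, although *Noto*, which defines notochordal cells, had 0 to 6 counts. Levels are given as CPM, the counts of a gene as a share of the library scaled by TMM factors. Summed cartilage markers were 37025 to 57555 CPM in db/+, 16790 to 44074 in db/db, 3590 to 16358 in Con+Veh and 958 to 2019 in STZ-HFD. Every db/+ and db/db library thus lay above every Con+Veh and STZ-HFD library. Summed skeletal muscle markers were 9409 CPM in STZ-HFD replicate 1 and 22502 to 25326 CPM in the other STZ-HFD libraries, 8955 to 11359 CPM in Con+Veh, 3111 to 5193 CPM in db/db and 4854 to 9746 CPM in db/+. In pooled discs, fewer cells of a type and less RNA per cell cannot be told apart. STZ-HFD replicate 1 was the shallowest library and yet had 38270 genes with at least 3 counts, against 21712 to 26256 in the others.

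No interferon-stimulated gene passed the threshold in either diabetic model. The threshold asked for a Benjamini-Hochberg adjusted p below 0.05 together with a log2 fold change of 1 or more in size, in limma with sample quality weights. Of the 37 genes, 27 passed the minimum level (a CPM above 1 in at least 3 libraries), and 0 of the 27 were called in db/db against db/+, where 1.66% of all 16915 genes tested were called (1.23% higher, 0.432% lower). In STZ-HFD against Con+Veh, 0 of 27 were called beside 2.61% of all genes (1.3% higher, 1.31% lower), and 0 of 27 differed between the contrasts beside 1.77% of all genes (0.952% higher, 0.816% lower). With no minimum on the fold change the members called were still 0 of 27, where 1.93% (db/db) and 3.45% (STZ-HFD) of all genes passed. At an unadjusted p under 0.05 the members numbered 4 of 27 in db/db, all lower, and 4 of 27 in STZ-HFD, with 3 lower and 1 higher. The shares of all genes at that p were 21.1% (10.7% higher, 10.4% lower) and 17.9% (8.34% higher, 9.54% lower). edgeR's quasi-likelihood test and DESeq2 also called 0 members in both contrasts, and each gave 4 members in db/db and 3 in STZ-HFD at an unadjusted p under 0.05. Over all genes, the shares in db/db and STZ-HFD were 11.2% and 12.6% with the quasi-likelihood test, and 12.6% and 13.9% with DESeq2. A count of 0 called members does not show that levels were equal: the 95% interval of the log2 fold change lay within 1 on both sides for 12 of the 27 in the db/db contrast and for 10 in the STZ-HFD contrast.

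The sequences in front of the genes were searched for the ISRE and GAS elements. Promoters were taken from RefSeq (GRCm38.p6) as the 250 bases before the start of transcription, and 27 of the 37 genes had an entry. *Mx1*, *Mx2*, *Usp18*, *Oas2*, *Zbp1*, *Dhx58*, *Parp9*, *Parp14*, *Rtp4* and *Ifi27* had none. The ISRE core was searched as GAAANNGAAA on both strands, and GAS as TTCNNNGAA, which reads the same on both strands. An ISRE core stood in 15 of the 27 genes (55.6%), whereas 3.46% of all genes with a promoter entry had one. GAS stood in 6 of the 27 (22.2%) and in 8.13% of all genes. The 6 promoters printed are given, on the strand of the gene, and were chosen because they include the 4 genes with the smallest p in db/db (*Stat2*, *Bst2*, *Irf7* and *Ifi35*) and 2 textbook targets with several cores (*Isg15* and *Ifit1*). Capitals mark ISRE cores and GAS.
Stat2 promoter, chr10:128270248-128270497, plus strand: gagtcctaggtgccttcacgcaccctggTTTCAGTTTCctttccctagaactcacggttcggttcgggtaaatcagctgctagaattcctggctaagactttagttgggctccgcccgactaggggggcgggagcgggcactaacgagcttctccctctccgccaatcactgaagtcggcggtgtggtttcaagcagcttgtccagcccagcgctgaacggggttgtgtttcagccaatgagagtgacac
Bst2 promoter, chr8:71537473-71537722, minus strand: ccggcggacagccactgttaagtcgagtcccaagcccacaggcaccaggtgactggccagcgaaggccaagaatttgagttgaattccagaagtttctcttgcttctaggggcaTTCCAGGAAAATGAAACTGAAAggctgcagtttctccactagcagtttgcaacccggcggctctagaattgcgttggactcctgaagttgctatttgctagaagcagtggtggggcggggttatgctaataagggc
Irf7 promoter, chr7:141266425-141266674, minus strand: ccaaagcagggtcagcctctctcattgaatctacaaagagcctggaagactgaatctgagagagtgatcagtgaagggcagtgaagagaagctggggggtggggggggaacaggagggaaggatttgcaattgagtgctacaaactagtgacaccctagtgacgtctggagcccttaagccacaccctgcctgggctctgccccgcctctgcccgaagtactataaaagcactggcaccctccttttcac
Ifi35 promoter, chr11:101448162-101448411, plus strand: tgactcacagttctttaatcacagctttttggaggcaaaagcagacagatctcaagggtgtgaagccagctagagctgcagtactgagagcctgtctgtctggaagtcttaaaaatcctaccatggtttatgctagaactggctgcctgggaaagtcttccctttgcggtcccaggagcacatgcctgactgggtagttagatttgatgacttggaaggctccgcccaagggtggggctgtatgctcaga
Isg15 promoter, chr4:156200819-156201068, minus strand: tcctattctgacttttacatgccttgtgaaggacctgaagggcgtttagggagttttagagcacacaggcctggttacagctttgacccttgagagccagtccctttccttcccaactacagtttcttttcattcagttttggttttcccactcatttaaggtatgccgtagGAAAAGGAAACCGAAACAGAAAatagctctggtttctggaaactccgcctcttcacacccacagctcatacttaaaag
Ifit1 promoter, chr19:34640639-34640888, plus strand: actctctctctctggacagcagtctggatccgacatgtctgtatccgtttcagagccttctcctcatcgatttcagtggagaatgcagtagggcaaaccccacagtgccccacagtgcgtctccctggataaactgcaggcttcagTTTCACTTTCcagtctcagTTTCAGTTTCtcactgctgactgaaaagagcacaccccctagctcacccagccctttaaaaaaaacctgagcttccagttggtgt

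The 3 cores of *Isg15* began 78, 72 and 66 bases before the start and overlapped, and the 2 cores of *Ifit1* began 104 and 85 bases before it. In *Bst2* a GAS beginning 136 bases before the start ran into 2 overlapping cores at 130 and 124 bases. *Stat2* had a single core 222 bases before the start, and these letters were not found in the *Irf7* and *Ifi35* windows. Of the 11 tested genes with a core, 8 had a log2 fold change below 0 in db/db (median -0.14), and of the 11 tested genes without one, 8 did (median -0.11). In STZ-HFD, 6 of the 11 with a core were below 0 (median -0.09) and 3 of the 11 without one (median 0.25). A match is a description of the letters and not evidence of binding.

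Levels between genes were compared as CPM per kilobase of exon, averaged over the 14 libraries. The median of the 27 tested members was 1.27 CPM per kilobase, against 1.63 for all genes tested, and 7 of these 27 were above the median of all genes tested. *Ifi27*, a small membrane protein induced by interferon, was far above the rest at 24.6 CPM per kilobase. It was followed by *Ifi35* at 5.22, *Parp14* at 4.46, *Rsad2* at 4.03, *Ddx58* at 2.25 and *Ifit3* at 2.17. *Mx1*, a dynamin-like antiviral GTPase, was lowest at 0.0727 CPM per kilobase.

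The place of *Ifi27* at the head of the order was the same in all 4 groups. Its level was 32.1 ± 3.77 CPM in db/+ (SD, n = 3), 33.4 ± 5.50 in db/db (n = 3), 32.7 ± 5.54 in Con+Veh (n = 4) and 44.5 ± 11.4 in STZ-HFD (n = 4). The STZ-HFD libraries held 59.3, 33.3, 47.1 and 38.2 CPM and the Con+Veh libraries 24.5, 36.5, 35.2 and 34.4 CPM, so the groups overlapped. The next genes in the order did not separate from one another: per kilobase, *Ifi35* was 4.76 ± 2.81 and *Rsad2* 5.46 ± 1.71 in Con+Veh, and *Parp14* owed its place to 2 libraries described with the PARP genes.

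**Figure D1:**
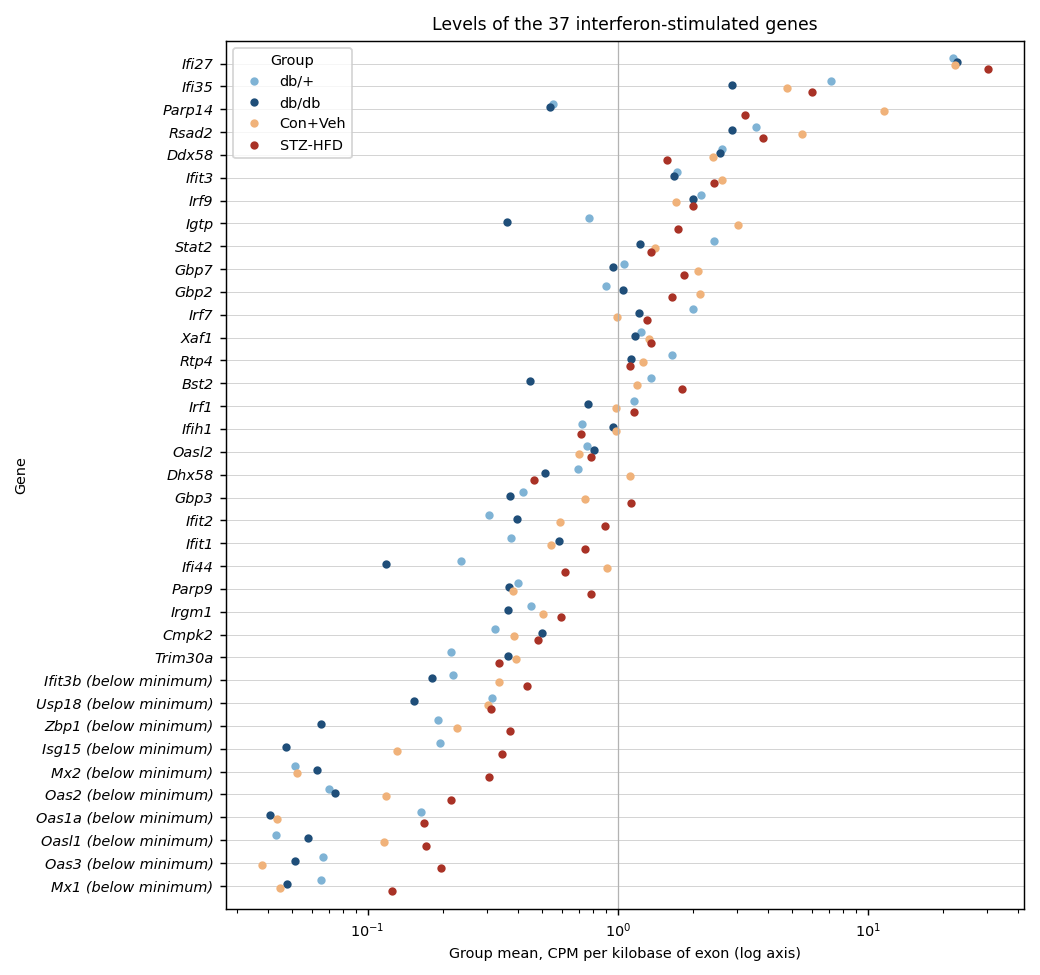
Levels of the 37 interferon-stimulated genes on a log axis, as the mean CPM per kilobase of exon in each group (db/+ and db/db n = 3, Con+Veh and STZ-HFD n = 4; no error bars), ordered by the mean of all libraries. *Ifi27* (24.6) lies above all others, the 10 genes below the minimum level lie at the bottom, and STZ-HFD replicate 1 was the highest STZ-HFD library for 9 of those 10.

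Of the transcription factors, *Stat2* and *Irf7* were among the 4 members with the smallest p in db/db. *Stat2* (ENSMUSG00000040033, chromosome 10 from 128270559 to 128292849 of GRCm38) encodes the STAT that joins IRF9 in the complex of type I interferon signaling. Its levels were 12.6, 13.98 and 16.4 CPM in db/+ and 4.80, 10.05 and 6.94 CPM in db/db. All 3 db/db libraries were below all 3 db/+ libraries. The log2 fold change was -1.01 (SE 0.27) with an adjusted p of 0.0560, so it missed the threshold.

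*Irf7* (ENSMUSG00000025498, chromosome 7 from 141262706 to 141266481), the factor that amplifies interferon production, had 6.32, 7.53 and 8.78 CPM in db/+ and 4.17, 5.35 and 4.24 CPM in db/db. The groups again did not overlap, and the log2 fold change was -0.71 (SE 0.26, adjusted p = 0.134). *Irf7* overlaps exons of *Phrf1* on the opposite strand, and the strand used in counting is not given in the sources used here, so reads in the overlap cannot be assigned. *Irf1*, a factor of the type II response, had 6.40, 2.80 and 4.66 CPM in db/+ and 2.63, 3.26 and 3.21 CPM in db/db, which overlapped (log2 fold change -0.48, SE 0.30, adjusted p = 0.379, or -0.24 without db/+ replicate 1 and -0.84 without db/+ replicate 2). *Irf9*, the DNA-binding partner of STAT2, was at 11.6 ± 0.547 CPM in db/+ and 10.8 ± 1.22 CPM in db/db (SD, n = 3). Exons of *Irf9* overlap *Rnf31* on the same strand, and those of *Irf1* overlap *Gm17334* on the opposite strand. Reads in these overlaps cannot be assigned either.

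The same factors took other values in STZ-HFD. *Stat2* was at 9.86, 6.52, 10.8 and 6.25 CPM in Con+Veh and 6.91, 9.35, 7.27 and 8.83 CPM in STZ-HFD, with groups that overlapped. *Irf7* had 4.40, 4.45, 2.11 and 4.07 CPM in Con+Veh and 5.96, 4.47, 5.72 and 3.66 CPM in STZ-HFD. Its log2 fold change of 0.64 (SE 0.32, adjusted p = 0.310) was 0.13 without Con+Veh replicate 3, the lowest library and the one with the largest quality weight (3.05). *Irf9* had 8.31, 13.4, 9.21 and 5.87 CPM in Con+Veh and 7.15, 12.9, 12.5 and 10.7 CPM in STZ-HFD (log2 fold change 0.42, SE 0.23, adjusted p = 0.362), or 0.18 without Con+Veh replicate 4.

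Of the proteins at the membrane or in the cytoplasm, *Ifi35* and *Bst2* were lower in all 3 db/db libraries. *Ifi35* (ENSMUSG00000010358, chromosome 11 from 101448407 to 101458698) encodes an interferon-induced leucine zipper protein. It had 11.2, 17.2 and 8.64 CPM in db/+ and 6.11, 3.69 and 4.996 CPM in db/db (log2 fold change -1.35, SE 0.40, adjusted p = 0.0795). *Bst2* (ENSMUSG00000046718, chromosome 8 from 71534255 to 71537456) encodes tetherin, which holds budding virus at the cell surface. Its levels were 1.52, 1.496 and 0.653 CPM in db/+ and 0.472, 0.388 and 0.346 CPM in db/db (log2 fold change -1.52, SE 0.59, adjusted p = 0.157). These 2 genes, *Stat2* and *Irf7* were the 4 members whose db/db libraries all lay below db/+, and *Cmpk2* was the 1 member above. Over all genes tested, 25.8% did not overlap between these groups (14.1% higher, 11.7% lower).

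*Ifi35* and *Bst2* spread widely in the other cohort. *Ifi35* ran from 2.74 to 14.6 CPM in Con+Veh and from 2.96 to 17.9 CPM in STZ-HFD, and *Bst2* from 0.543 to 2.34 and from 0.559 to 2.85 CPM. Few *Ifi35* counts were found again in the authors' transcript estimates, which summed to 2.74% of its gene counts, where the libraries as a whole reached 18.9 to 29.4% outside ribosomal RNA. In those estimates *Ifi35* had 18.6, 20.0 and 18.2 in db/+ and 1.02, 15.6 and 15.9 in db/db, so a single db/db library was well below the rest.

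**Figure D2:**
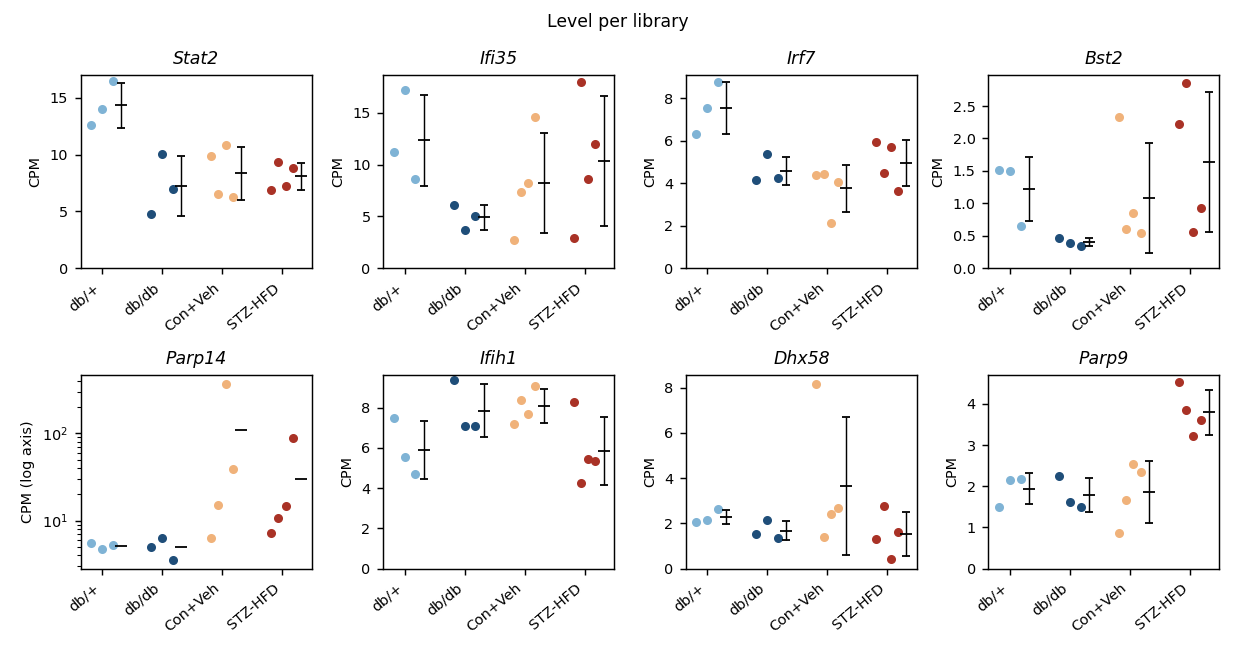
CPM in each library for the 4 members with the smallest p in db/db (top row) and in STZ-HFD (bottom row). Points are libraries, black bars are group means with SD, and *Parp14* is on a log axis with its means alone. The db/db points of *Stat2*, *Ifi35*, *Irf7* and *Bst2* lie below all db/+ points, and *Parp14* is spread by 2 libraries at 370 and 87.3 CPM.

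Cytosolic RNA sensors recognise viral RNA and start interferon production. *Ifih1* (MDA5; ENSMUSG00000026896, chromosome 2 from 62595798 to 62646255) had 7.17, 8.37, 7.66 and 9.07 CPM in Con+Veh and 8.26, 4.26, 5.47 and 5.35 CPM in STZ-HFD. Replicates 2 to 4 of STZ-HFD were below every Con+Veh library, while STZ-HFD replicate 1 was within their range (log2 fold change -0.59, SE 0.24, adjusted p = 0.197). From transcript estimates the value was -3.19 and the difference of the contrasts for *Ifih1* -3.94. Those estimates were 69.0, 86.8, 43.8 and 52.1 in Con+Veh and 43.7, 2.25, 0 and 39.0 in STZ-HFD. The STZ-HFD libraries at 2.25 and 0, replicates 2 and 3, held 124 and 176 gene counts on *Ifih1*. In db/+ *Ifih1* had 7.47, 5.55 and 4.68 CPM and in db/db 9.36, 7.09 and 7.10 CPM (log2 fold change 0.43, SE 0.23, adjusted p = 0.290).

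*Ddx58*, which encodes RIG-I, had 15.6, 19.9, 16.6 and 15.6 CPM in Con+Veh and 6.00, 10.4, 14.1 and 13.9 CPM in STZ-HFD. It was the single member whose STZ-HFD libraries all lay below Con+Veh, where 4.74% of all genes did not overlap and 2.77% lay below (log2 fold change -0.41, SE 0.20, adjusted p = 0.301). *Dhx58*, which encodes the regulator LGP2, had 8.18, 1.41, 2.40 and 2.66 CPM in Con+Veh and 1.32, 2.75, 0.404 and 1.61 CPM in STZ-HFD. The groups overlapped, and its log2 fold change of -1.27 (SE 0.54, adjusted p = 0.218) was -0.45 without STZ-HFD replicate 3. Exons of *Dhx58* overlap the antisense gene *Dhx58os*, and its transcript estimates summed to 5.49% of its gene counts.

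The PARP genes encode ADP-ribosyltransferases that act in interferon responses. *Parp9* (ENSMUSG00000022906, chromosome 16 from 35938470 to 35972605) had 0.869, 1.66, 2.54 and 2.34 CPM in Con+Veh and 4.52, 3.85, 3.23 and 3.597 CPM in STZ-HFD. It was the single member whose STZ-HFD libraries all lay above Con+Veh, as 1.97% of all genes did (log2 fold change 0.71, SE 0.32, adjusted p = 0.247). *Parp9* shares exon sequence with *Dtx3l* on the opposite strand.

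*Parp14* (ENSMUSG00000034422, chromosome 16 from 35832874 to 35871544) had 6.38, 15.1, 370 and 39.4 CPM in Con+Veh and 7.19, 10.7, 14.7 and 87.3 CPM in STZ-HFD. Its log2 fold change of -2.16 (SE 0.87, adjusted p = 0.192) turned to 0.11 without Con+Veh replicate 3, where 7877 counts were placed on the gene. The transcript estimates held 57 in that library and 78 in STZ-HFD replicate 4, within the range of the other libraries (23 to 148), and the fold change from those estimates was 0.29 on the log2 scale. In db/+ and db/db all 6 libraries lay between 3.57 and 6.36 CPM.

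The Ifit, Oas and viperin genes are common reporters of type I interferon. *Ifit1*, which binds foreign capped RNA, had 0.164, 1.55 and 1.26 CPM in db/+ and 2.09, 0.746 and 1.79 CPM in db/db, with groups that overlapped (log2 fold change 0.84, SE 0.67, adjusted p = 0.497), and the value of *Ifit1* was 0.0050 without db/+ replicate 1. *Ifit3* was at 3.02 ± 0.633 CPM in db/+, 2.92 ± 0.254 in db/db (SD, n = 3), 4.56 ± 3.64 in Con+Veh and 4.25 ± 0.699 in STZ-HFD (SD, n = 4). None of the 3 tested Ifit genes had an unadjusted p under 0.05 in either contrast.

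*Rsad2* encodes viperin, an antiviral enzyme, and *Cmpk2* next to it a nucleotide kinase. *Rsad2* ran from 8.83 to 28.0 CPM in db/+ and 9.32 to 16.3 in db/db, and from 16.1 to 33.7 CPM in Con+Veh and 10.3 to 22.9 in STZ-HFD. *Cmpk2* had 1.15, 1.58 and 1.32 CPM in db/+ and 2.01, 1.65 and 2.53 CPM in db/db, with no overlap (log2 fold change 0.57, SE 0.32, adjusted p = 0.319). *Oasl2*, an OAS-like protein, was the 1 gene of its family above the minimum level. It had 9.56, 2.701, 2.16 and 3.37 CPM in Con+Veh and 4.605, 6.05, 5.44 and 3.81 CPM in STZ-HFD (log2 fold change 0.76, SE 0.43, adjusted p = 0.378), or 0.32 without Con+Veh replicate 3.

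The interferon-induced GTPases, which attack vacuoles that hold pathogens, and *Trim30a* also overlapped between groups. *Igtp* had 1.05, 2.52 and 1.10 CPM in db/+ and 0.535, 0.589 and 1.07 in db/db (log2 fold change -1.10, SE 0.87, adjusted p = 0.491), or -0.63 without db/+ replicate 2. In Con+Veh it had 1.01, 2.72, 11.7 and 9.13 CPM and in STZ-HFD 1.32, 2.51, 6.68 and 3.597 CPM (log2 fold change -0.97, SE 0.53, adjusted p = 0.352), or -0.11 without Con+Veh replicate 3, -0.58 without Con+Veh replicate 4 and -1.47 without STZ-HFD replicate 3. *Igtp* shares exon sequence with *Irgm2* on the same strand, and its transcript estimates were 0 in every library, so its counts are uncertain. *Trim30a*, a regulator of inflammatory signaling, had 1.19, 1.15 and 0.311 CPM in db/+ and 1.09, 1.89 and 1.49 CPM in db/db (log2 fold change 0.95, SE 0.54, adjusted p = 0.320), or 0.33 without db/+ replicate 3. *Gbp2*, *Gbp3*, *Gbp7* and *Irgm1* had adjusted p values of 0.645 or more in db/db and 0.538 or more in STZ-HFD, and near-identical neighbours in their families can share reads.

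Counted over the list, 20 of the 27 genes had a log2 fold change below 0 in db/db, with a median of -0.13 beside -0.04 for all genes, and 16 of 27 were above 0 in STZ-HFD, with a median of 0.13 beside -0.04. Of all genes, 47.3% were above 0 in db/db and 47.2% in STZ-HFD. Apart from the 10 genes with the smallest p, the other 17 ranged from -0.84 to 0.30 in db/db and from -0.54 to 0.47 in STZ-HFD. The summed level of the tested members without *Parp14* was 161 to 168 CPM in db/+, 141 to 143 in db/db, 174 to 186 in Con+Veh and 173 to 186 in STZ-HFD. *Ifi27*, *Rsad2* and *Ddx58* had the highest mean CPM among the genes summed, and the sums are a description with no test. The direction counts depend on the processing and on single libraries. From transcript estimates 15 members were above 0 and 14 below in db/db (median 0.032), and the db/db median was -0.28 without db/db replicate 2 and -0.055 without db/db replicate 3. Without Con+Veh replicate 4 the STZ-HFD contrast had 13 members above 0 and 14 below (median -0.019).

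**Figure D3:**
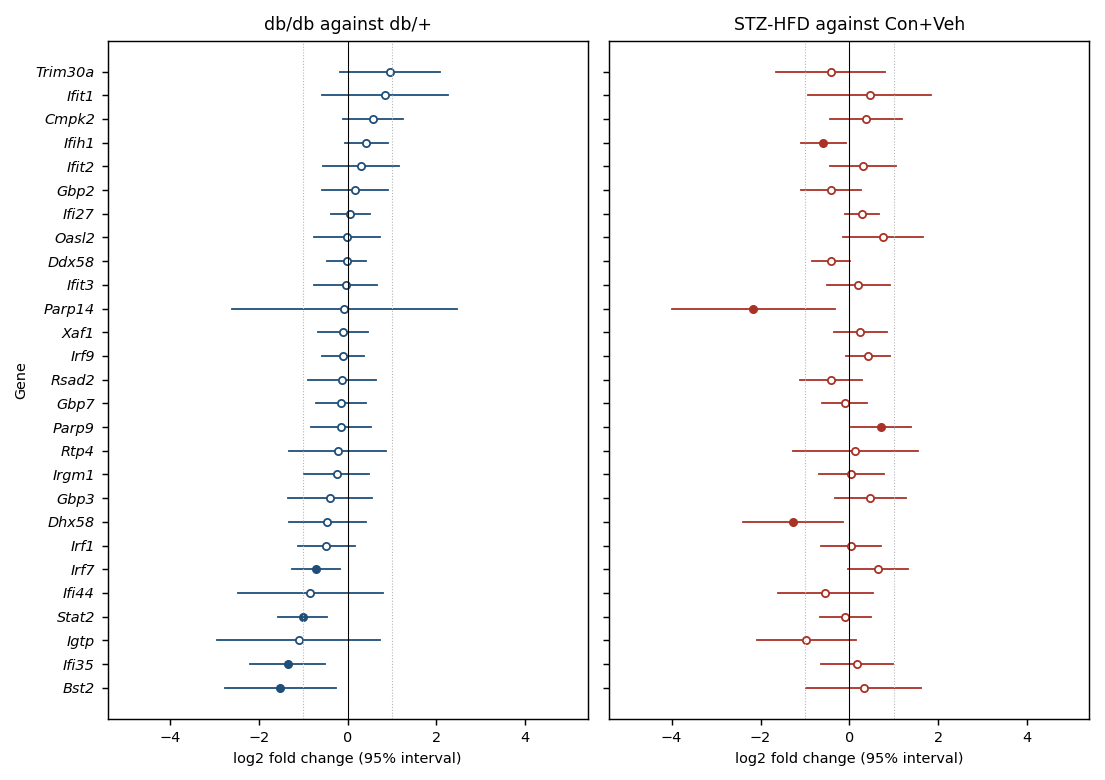
log2 fold change of each tested member with its 95% interval in db/db against db/+ (left) and STZ-HFD against Con+Veh (right), ordered by the left panel; filled points have an unadjusted p under 0.05 and dotted lines mark a fold change of 1 on either side. No member was called, and filled points number 4 in each panel.

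The models were set against each other by the difference of the contrasts, STZ-HFD minus db/db. At an unadjusted p under 0.05 this gave 5 of 27 members, beside 17.3% of all genes (4 higher beside 8.35%, 1 lower beside 8.94%), and 0 passed the adjusted threshold. Of the 27, 18 were above 0, as were 48.5% of all genes. *Irf7* differed by 1.35 (SE 0.41, adjusted p = 0.0998), *Ifi35* by 1.52 (SE 0.55, adjusted p = 0.162), *Stat2* by 0.92 (SE 0.38, adjusted p = 0.220) and *Bst2* by 1.83 (SE 0.85, adjusted p = 0.278), all lower in db/db than in STZ-HFD relative to controls. *Ifih1* differed the other way, by -1.01 (SE 0.33, adjusted p = 0.118). No member was shown to differ between the models.

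GC content moved with the db/db contrast. Over all genes tested, the log2 fold change in db/db had a Spearman rho of -0.43 with exon GC content, and over the 27 members it was -0.55, a description over genes that share the same 6 libraries. Of the 8 members with a GC content of 50% or more, 7 were below 0 (median -0.59), while the other 19 had a median of -0.07. *Stat2* (51.9% GC), *Ifi35* (54.1%), *Irf7* (55.4%) and *Bst2* (55.3%) all lay in the upper part. After the GC trend of each library was removed, the log2 fold change of *Irf7* was -0.38 (adjusted p = 0.521), that of *Bst2* -1.19 (adjusted p = 0.316), that of *Ifi35* -1.07 (adjusted p = 0.162) and that of *Stat2* -0.90 (adjusted p = 0.106). The part of GC content in the values given above was not tested beyond this. In STZ-HFD the rho over all genes was -0.08.

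**Figure D4:**
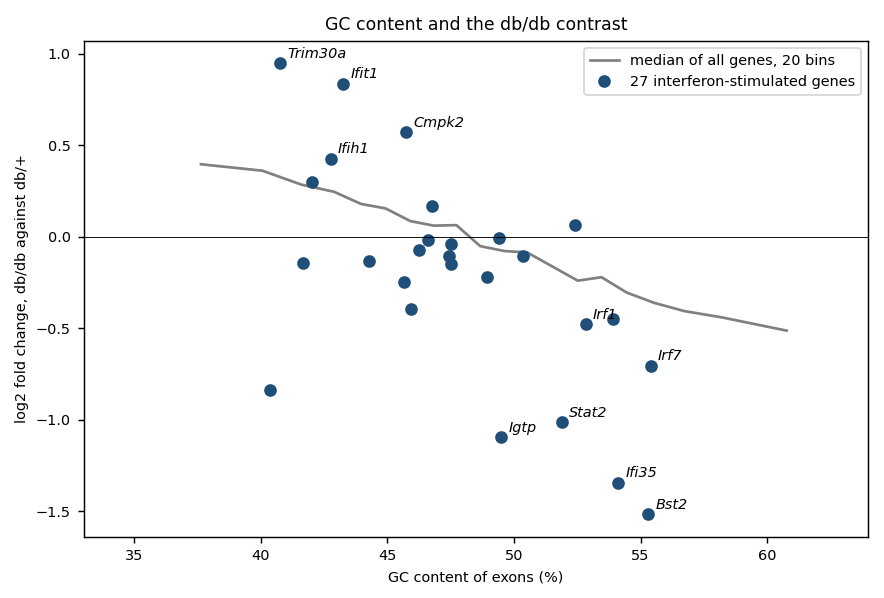
log2 fold change in db/db against db/+ (vertical) of the 27 tested members against exon GC content in percent (horizontal), with the median of all genes in 20 bins of GC content as a line. *Stat2*, *Ifi35*, *Irf7* and *Bst2* lie at 51.9 to 55.4% GC, where the line is below 0, and lie below the line.

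The 10 members below the minimum level include classical interferon reporters. *Isg15*, the ubiquitin-like modifier, had 0 to 16 counts in any library, and *Usp18*, its protease, 14 to 70. *Mx1* and *Mx2* had 0 to 36 and 0 to 69 counts. The Oas genes, most of which encode 2-5A synthetases that activate RNase L, were as sparse, with *Oas1a* at 0 to 33, *Oas2* at 2 to 54, *Oas3* at 0 to 100 and *Oasl1* at 0 to 22 counts. *Zbp1*, a sensor of Z-form nucleic acid, had 3 to 100, and *Ifit3b*, a near copy of *Ifit3*, 6 to 52 counts. A count of 3, the limit that a count of 0 allows, came to 0.0431 to 0.163 CPM, a limit for counting error alone.

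STZ-HFD replicate 1 was the highest STZ-HFD library for 9 of these 10 genes. It held 100 counts on *Oas3*, 100 on *Zbp1* and 69 on *Mx2*, where the other 3 STZ-HFD libraries held 14 to 17, 6 to 19 and 9 to 26. Their summed level was 19.7 CPM there and 1.53 to 4.46 CPM in the other 13 libraries. The transcript estimates for the 10 genes summed to 13 in that library, against 14 to 63.9 in the others. The same library was the highest of its group for 84.9% of the 3519 low protein-coding genes with counts in at least 7 libraries. Without it, the STZ-HFD sums were 3.58 to 4.35 CPM and within the Con+Veh range of 3.26 to 4.46 CPM. In db/db the sums were 1.53, 3.17 and 2.44 CPM and in db/+ 3.61, 3.57 and 4.13 CPM, which did not overlap, and no test was made on these sums. All of the 10 genes but *Ifit3b* (45.75%) and *Mx1* (47.3%) have a GC content above 50%. Over all genes tested with a GC content of 50% or more, the median log2 fold change in db/db was -0.29. The part of GC content in these sums was not tested.

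**Figure D5:**
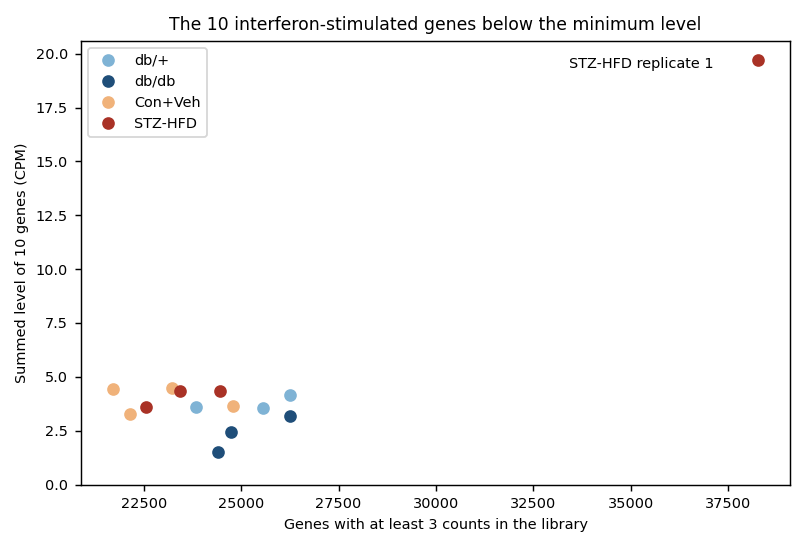
Summed level of the 10 members below the minimum level, in CPM, against the number of genes with at least 3 counts, one point per library. STZ-HFD replicate 1 stands alone at 38270 genes and 19.7 CPM, while the other 13 libraries lie between 21712 and 26256 genes and at 4.46 CPM or less.

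The ligands that induce these genes were nearly undetected. Of 10 interferon genes, 0 passed the minimum level, 6 had any count and the highest count was 26. That was *Ifnb1*, the first type I interferon of most cells, with 26 counts in STZ-HFD replicate 1, 2 in each of STZ-HFD replicates 2 and 3, and 0 elsewhere. *Ifng*, the type II interferon, had 4 counts in db/+ replicate 3, 4 in STZ-HFD replicate 1 and 0 elsewhere. Differences in interferon transcripts were not detectable at this depth.

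The receptors were expressed in every library. *Ifnar1*, the type I receptor chain, had 18.4, 20.0, 19.4 and 14.3 CPM in Con+Veh and 7.65, 12.2, 13.4 and 13.2 CPM in STZ-HFD, with no overlap (log2 fold change -0.49, SE 0.20, adjusted p = 0.203). Its partner *Ifnar2* had 5.73, 7.65, 10.01 and 9.13 CPM in Con+Veh and 8.55, 4.99, 5.405 and 6.39 CPM in STZ-HFD (log2 fold change -0.63, SE 0.25, adjusted p = 0.188). In db/db the same chains gave -0.14 (SE 0.21, adjusted p = 0.743) and 0.46 (SE 0.24, adjusted p = 0.272).

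*Ifngr1*, the ligand-binding chain for type II interferon, had 35.0, 31.3 and 25.1 CPM in db/+ and 47.8, 45.4 and 45.0 CPM in db/db, with no overlap (log2 fold change 0.60, SE 0.21, adjusted p = 0.130). *Ifngr2* differed by -0.10 (SE 0.24, adjusted p = 0.861) in db/db and 0.25 (SE 0.24, adjusted p = 0.643) in STZ-HFD.

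Beyond the members, 93 other genes of the interferon system were tested, 37 of the pathway (receptors, kinases, regulators, sensors, adaptors) and 56 further interferon-stimulated genes. None of the 93 was called in db/db or STZ-HFD by limma at the same threshold. In the pathway list, 6 were higher and 5 lower at an unadjusted p under 0.05 in db/db, and 1 higher and 6 lower in STZ-HFD. Over all genes those shares were 10.7% and 10.4% in db/db, and 8.34% and 9.54% in STZ-HFD. Among the 56 the counts were 8 higher and 7 lower in db/db, and 3 higher and 7 lower in STZ-HFD. Of the 36 further genes induced mainly by type I interferon, 25 were above 0 in db/db (median 0.30) and 30 were below 0 in STZ-HFD (median -0.23). Of 20 induced mainly by type II interferon, which include antigen-presentation genes, 16 were below 0 in db/db (median -0.51) and 13 above 0 in STZ-HFD (median 0.08), where 47.3% and 47.2% of all genes were above 0. GC content moved with the db/db contrast over all genes, and its part in the directions of these lists was not tested.

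*Samd9l*, *Ifi207* and *Tapbp* were named after their values were seen, because they passed the adjusted p in some contrast. *Samd9l* encodes an antiviral and growth-restraining protein and had 9.05, 10.2 and 9.81 CPM in db/+ and 20.3, 15.1 and 22.2 CPM in db/db, with no overlap. Its log2 fold change was 0.96 (SE 0.21, adjusted p = 0.0327), under the minimum fold change, with an adjusted p of 0.0639 to 0.107 when any db/+ library or db/db replicate 1 or 3 was left out, and it differed between the contrasts by -1.25 (SE 0.29, adjusted p = 0.0389). *Ifi207*, of the PYHIN family of DNA-binding proteins, had 14.2, 11.8 and 8.63 CPM in db/+ and 36.0, 24.6 and 16.4 CPM in db/db (log2 fold change 1.09, SE 0.29, adjusted p = 0.0565).

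The difference of the contrasts for *Ifi207* was -1.65 (SE 0.38, adjusted p = 0.0386), and *Ifi207* and *Samd9l* were the 2 genes of the 93 called in that comparison. These calls were not stable: *Samd9l* was called under 7 of 29 alternatives (adjusted p up to 0.491) and *Ifi207* under 8 of 28 (adjusted p up to 0.266). Both calls were lost with edgeR's quasi-likelihood test and without any 1 of db/+ replicates 2 and 3, db/db replicate 1, Con+Veh replicates 3 and 4 and STZ-HFD replicates 2, 3 and 4, that of *Samd9l* also without db/+ replicate 1 or db/db replicate 3, and that of *Ifi207* also without db/db replicate 2. *Tapbp*, which encodes tapasin of the MHC class I loading complex, had 121, 51.0, 105 and 115 CPM in Con+Veh and 33.9, 67.3, 53.1 and 51.0 CPM in STZ-HFD (log2 fold change -0.98, SE 0.22, adjusted p = 0.0255), also under the minimum fold change. Its adjusted p was 0.340 without Con+Veh replicate 3, 0.214 without Con+Veh replicate 4, 0.201 without STZ-HFD replicate 3 and 0.112 without STZ-HFD replicate 4. PYHIN genes have close copies, and reads shared among them make *Ifi207* uncertain.

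Marker genes of immune and tissue cells were measured in the same libraries. Summed markers of macrophages, which are strong responders to interferon, were 137 to 253 CPM in STZ-HFD and 193 to 398 CPM in Con+Veh, and 4 of 11 were called lower. In db/db they were 185 to 311 CPM against 169 to 246 CPM in db/+, with 0 of 11 called. Markers of plasmacytoid dendritic cells, a main source of type I interferon, were 364 to 394 CPM in db/db and 255 to 353 CPM in db/+, with 0 of 6 called, although 2 of the 6, *Irf7* and *Bst2*, are members and were lower in every db/db library. In db/+ and db/db, *Irf7* was at 4.17 to 8.78 CPM and *Bst2* at 0.346 to 1.52 CPM. The other markers thus made up most of these sums, which do not measure the number of such cells. The same sums were 216 to 590 against 342 to 476 CPM in STZ-HFD and Con+Veh. T and NK cell markers summed to 7.03 CPM or less in every library. In the contrast of STZ-HFD, 6 of 8 cartilage markers were called lower and 4 of 10 skeletal muscle markers higher. Also called lower were 2 of 7 markers of tendon and outer annulus and 1 of 6 bone markers. Over all genes, 1.31% were called lower and 1.3% higher in that contrast. In the contrast of db/db, 4 of 7 adipocyte markers and 1 of 7 endothelial markers were called higher, and all 10 muscle markers were below 0, with 1 called lower. The shares of all genes there were 1.23% higher and 0.432% lower. The part of cell composition in the interferon-stimulated genes was not tested beyond fits with muscle, macrophage or adipocyte markers as a covariate.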

How the data were processed

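The authors aligned reads with STAR 2.7.9a1 to Ensembl release 101 (GRCm38) and deposited gene counts from featureCounts 2.0.32, without normalization, and estimated counts per transcript from Salmon 1.5.23. Versions are as the submitters' processing notes print them. The strand setting is not given in the sources used here. Groups came from the sample labels, and all 14 samples were mapped. Labels give the high-fat diet as 80% kcal fat and the study's methods as 60%. Library preparation amplified total RNA before sequencing.

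The gene table's 55774 lines, of which 287 were repeats, gave 55487 genes, and 55227 were found in GENCODE M21, which gave positions, exon lengths and GC content. No gene name was blank. The fit took the 16915 genes that exceeded 1 CPM in 3 or more libraries. Counts were fitted with limma 3.58.1 voomWithQualityWeights on edgeR 4.0.16 TMM factors (R 4.3.3), as in the study's methods, with 4 group means and Benjamini-Hochberg adjustment over all genes within each contrast. The members, gene lists and tests were chosen with earlier results of these data known. Members were given per library if called or among the 10 smallest p of either model contrast, with the highest per kilobase, and other pathway genes if called, with *Ifnar1*, *Ifnar2*, *Ifngr1*, *Ifngr2*, *Ifnb1* and *Ifng* in any case; 1 further gene of this rule is not reported here. Marker sums used TMM-scaled CPM.

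Other settings tried were DESeq2 1.42.0, the quasi-likelihood test of edgeR, voom without weights, RLE factors, filterByExpr, no filter, each model alone, a replicate block (with and without GC correction), GC correction over 20 bins, rounded transcript estimates summed per gene, 3 marker covariates, no ribosomal RNA, no minimum fold change, and libraries left out. The fits were tried on simulated counts. Depth was 16076908 to 58943169 counts per library (8945906 to 35031712 outside ribosomal RNA). Each library is 1 mouse, so p values cover the spread between mice within groups. For each gene this spread was pooled over all 4 groups. A library of either cohort can therefore widen or narrow the intervals of both contrasts. Same-numbered samples were different mice, and the labels name no pairing. The correlation of their deviations from group means was -0.28 to 0.19 in the db groups and -0.26 to -0.04 in the others. Between samples of different number it was -0.28 to 0.45 and -0.17 to 0.26.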

Additional observations from a re-analysis of the deposited data

Results flagged for a closer look

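In groups of 4 libraries, the highest or lowest CPM of each member was compared with its neighbour by Dixon's ratio at its 95% critical value for 4 samples. Of 74 groups, 12 extremes passed. A chance rate of about 1 group in 20 holds for independent, normally distributed values. It cannot be applied here, because the genes share the same libraries and some groups held very few counts. The rate over all genes was not measured, so whether these 12 extremes are more than chance gives was not tested.

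Members above the minimum level gave 7 of these. *Parp14* was at 370 CPM in Con+Veh replicate 3 (next 39.4 CPM) and at 87.3 CPM in STZ-HFD replicate 4 (next 14.7 CPM), while the transcript estimates there were 57 and 78. *Oasl2* was at 9.56 CPM in Con+Veh replicate 1 (next 3.37), and *Bst2* at 2.34 CPM in the same library (next 0.846). *Rtp4*, a chaperone of membrane receptors, was at 5.69 CPM in Con+Veh replicate 2 (next 2.01). *Gbp7* was at 14.1 CPM in STZ-HFD replicate 2 (next 9.44). *Irf7* was the one low extreme among these, at 2.11 CPM in Con+Veh replicate 3 (next 4.07).

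Members below the minimum level gave the other 5. *Oas3* and *Zbp1* were both at 4.11 CPM (100 counts each) in STZ-HFD replicate 1, with next values of 0.505 and 0.653 CPM. *Oas3* was at 0.893 CPM in Con+Veh replicate 3 and *Oas1a* at 0.326 CPM in Con+Veh replicate 4, from 19 and 6 counts. *Usp18* was low at 0.481 CPM in STZ-HFD replicate 2 (14 counts).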

How the results depend on the processing

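The count of members called was 0 in all 3 comparisons under the edgeR quasi-likelihood test, DESeq2, voom without weights, RLE factors, both filters, GC correction, transcript estimates, the muscle covariate, removal of ribosomal RNA and no minimum fold change. Removal of both libraries whose names end in RIP was run for STZ-HFD and the difference and also gave 0. In db/db it was 1 with the model fitted alone (*Ifi35*, adjusted p = 0.0470), 2 with macrophage markers as a covariate (*Ifi35* and *Stat2*) and 0 to 1 when single libraries were left out, where *Stat2* was called (adjusted p = 0.0445) without Con+Veh replicate 3, a library of the other cohort. Over all genes, db/db calls were 357 higher and 79 lower of 15332 with the model alone. They were 468 and 316 of 16915 with macrophage markers and 214 and 85 of 16731 without Con+Veh replicate 3. With the replicate block, 3 members were called lower in db/db (*Stat2*, *Ifi35* and *Bst2*) and 0 in STZ-HFD, and 2 with the block and GC correction (*Stat2* and *Bst2*). The block raised the calls over all genes in db/db from 208 higher and 73 lower to 796 and 688. It lowered those in STZ-HFD from 220 and 221 to 2 and 4. The labels link same-numbered samples by the number alone, so whether the numbers stand for a pairing is not known. With the block and GC correction the db/db calls over all genes were 653 higher and 400 lower. In STZ-HFD the count of members was 1 with adipocyte markers as a covariate (*Parp14*, adjusted p = 0.0376). Over all genes, that fit called 4 higher and 26 lower.

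Signs turned for few of the values printed. In db/db, *Trim30a* was -0.50 with adipocyte markers, *Ifnar1* 0.24 and *Ifngr2* 0.39 with muscle markers, *Ifngr1* -0.73 from transcript estimates, and *Ifngr2* ran from -0.28 to 0.089 over single libraries left out. In STZ-HFD, *Parp14* was 0.29 from transcript estimates, 0.076 with macrophage markers and -3.27 to 0.11 over single libraries left out, *Ifngr2* -0.22 and -0.046 with muscle and adipocyte markers, and *Ifi207* 0.16 with macrophage markers. The difference for *Ifi35* was -0.29 with muscle markers. The causes were not tested. Among the 17 members of larger p, 16 in db/db and 15 in STZ-HFD took the other sign under at least 1 alternative.

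Over all genes, voom without weights called 7 higher and 2 lower in db/db and 3 and 16 in STZ-HFD, the quasi-likelihood test 0 and 0, and 6 and 23, and DESeq2 160 and 52, and 123 and 154, so the counts of calls depend on the test. With 3 or 4 mice a group, the 95% intervals of members were 0.87 to 5.06 log2 units wide in db/db and 0.75 to 3.67 in STZ-HFD. The widest in both contrasts was that of *Parp14*, the member with the highest mean CPM (41.5) and with 370 CPM in Con+Veh replicate 3. Its db/db interval ran from -2.61 to 2.46, although its db/+ and db/db libraries all lay between 3.57 and 6.36 CPM.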
